A study of Mus musculus with 5 samples.

Results

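A set of 8 genes of the death receptor and caspase pathways was examined, namely Fas, Fasl, Tnfsf10, Fadd, Casp8, Cflar, Ripk1 and Casp4. They were taken by gene symbol, through every probe set whose only symbol is 1 of the 8. Of the 8 genes, 7 had such a probe set, 15 in all among 45101 on the array, and Ripk1 was not analysed here. The main probe set of a gene is the one whose mean over all arrays is highest. Fas, Casp8 and Casp4 had 1 probe set each and the other 4 genes had several.

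Affymetrix GeneChip arrays of the mouse genome, 5 in all, were hybridized with RNA of sorted cells. CXCR6+ CD4+ T cells (labelled CXCR6 Hi, n = 2 arrays) and CXCR6- CD4+ T cells (labelled CXCR6 Lo, n = 2) were sorted from the colonic lamina propria (LP) of mice with colitis, and CD45RBhigh CD4+ T cells served as the naive population (n = 1). All groups are of BALB/c background, at 8 to 12 weeks of age when experiments began. In the model, CD45RBhigh CD4+ T cells of BALB/c spleen are given to Rag1-/- hosts, which have no T or B cells of their own but keep their myeloid, NK, epithelial and stromal cells. The LP cells were taken 6 weeks after transfer according to the legend of a supplementary table, while the methods give 8 weeks for transfers. The naive sample is labelled with both spleen and LP, and the methods place it in the spleen. By the methods, LP cells were released with EDTA and collagenase and passed through Percoll, while spleens were broken up mechanically. LP and naive cells thus differ in tissue, host and preparation together, which these arrays cannot tell apart. The labels call the arrays biological replicates without a number of mice, so a p-value here speaks of the spread from array to array, which may be technical.

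Death receptors are members of the TNF receptor family with a cytoplasmic death domain. When Fas ligand or TRAIL binds its receptor, the adaptor FADD joins the receptor and recruits procaspase-8, which activates itself and can start apoptosis. The protein c-FLIP, encoded by Cflar, sits in the same complex and restrains caspase-8, and the kinase RIPK1 takes part in both survival and death signals. In T cells this pathway is known for removing repeatedly activated cells and for killing target cells. Caspase-11, the product of mouse Casp4, belongs to the inflammatory caspases and responds to bacterial lipopolysaccharide in the cytosol.

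Against naive T cells, LP T cells had higher signals of Fasl and Casp4 and lower signals of Tnfsf10 and Casp8, by their main probe sets. Fasl was 4.92-fold and Casp4 3.35-fold higher in LP cells, and Tnfsf10 was 3.50-fold and Casp8 2.62-fold lower. Fas, Fadd and Cflar did not pass the test with their main probe sets. Other probe sets of Fasl (1418803_a_at) and Tnfsf10 (1420412_at) did not pass. With quantile normalization, Tnfsf10 and Casp8 did not pass either. These calls rest on a single naive array and depend on the settings, as given below. Between the CXCR6+ and CXCR6- subsets none of the 7 genes passed, and the differences with the smallest p belonged to the ligand genes Fasl and Tnfsf10. All signals are on a linear scale on which each array has a median of 1, and the test was limma with Benjamini-Hochberg adjustment over 18193 genes at a threshold of 0.05.

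The bases just before the listed transcription start are shown for Fasl and Casp4, the genes that were higher in LP cells, and for Tnfsf10, which was lower. The sequences are RefSeq's on build GRCm38.p6, a C57BL/6 reference, and each runs 5′ to 3′ on the gene's strand over 250 bases. Capitals mark matches to the NF-kappaB consensus and to GGAAA, the core bound by NFAT, the factor that T cell receptor signals activate, on either strand.
Fasl, chr1:161788496-161788745, minus strand: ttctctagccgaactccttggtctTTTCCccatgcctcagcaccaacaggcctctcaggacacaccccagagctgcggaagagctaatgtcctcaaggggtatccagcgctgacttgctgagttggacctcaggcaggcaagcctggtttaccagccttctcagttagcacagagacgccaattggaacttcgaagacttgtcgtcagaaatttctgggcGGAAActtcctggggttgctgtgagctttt
Tnfsf10, chr3:27316827-27317076, plus strand: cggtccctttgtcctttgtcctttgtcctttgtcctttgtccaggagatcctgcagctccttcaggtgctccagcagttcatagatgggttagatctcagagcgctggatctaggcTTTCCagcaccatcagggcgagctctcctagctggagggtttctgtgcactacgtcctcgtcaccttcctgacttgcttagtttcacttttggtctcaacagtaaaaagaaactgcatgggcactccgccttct
Casp4, chr9:5308599-5308848, plus strand: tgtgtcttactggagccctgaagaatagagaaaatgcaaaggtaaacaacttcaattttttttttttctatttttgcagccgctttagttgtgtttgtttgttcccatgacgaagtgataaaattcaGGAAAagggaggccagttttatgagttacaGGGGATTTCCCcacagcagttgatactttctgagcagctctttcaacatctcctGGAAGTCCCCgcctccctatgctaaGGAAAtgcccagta

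Only the Casp4 window, among those of the 7 measured genes, held the NF-kappaB consensus. It held 3 matches, of which those within GGGGATTTCCC overlap each other and, in part, the letters of a GGAAA match on the other strand. At least 1 match was present in 7.3% of 32851 RefSeq promoter windows of the same length. GGAAA was found on either strand in 3 places in the Casp4 window, 2 in that of Fasl and 1 in that of Tnfsf10, and in 55.6% of all windows. The STAT motif TTCNNNGAA and the AP-1 motif TGANTCA, searched on both strands, were each found once in the window of Fas and in none of the other measured genes, against 7.0% and 6.7% of all windows. A match is a description of letters and not of binding, which was not measured. The windows of Cflar, Casp8 and Fas lie before a listed start that is not the outermost start of the gene. For Casp8 the start used was at 58802502 on chromosome 1 and the outermost at 58795233, so its window is not printed. Some of these genes are neighbours. Cflar and Casp8 lie on chromosome 1 with a gap of 36.35 kb and 0 protein-coding genes between them, and Casp4 lies on chromosome 9 between Casp1, 1.567 kb away, and Casp12, 8.65 kb away.

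Fasl encodes Fas ligand, which activated T cells and NK cells use to kill Fas-bearing cells. Its main probe set, 1449235_at, gave 82.1 and 104.7 in CXCR6+ cells, 32.5 and 46.8 in CXCR6- cells and 12.2 in naive cells. Every LP array was above the naive array, and both CXCR6+ arrays were above both CXCR6- arrays. The log2 difference between LP and naive cells was 2.30 (SE 0.35, limma adjusted p = 0.02212). CXCR6+ cells were 7.58-fold above naive cells (adjusted p = 0.02202) and CXCR6- cells 3.19-fold (adjusted p = 0.04932), 2 comparisons that share the naive array. In bulk RNA, fewer cells that express a gene and less of its RNA per cell cannot be told apart.

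The second Fasl probe set, 1418803_a_at, gave another picture against naive cells. It had signals of 9.73 and 10.9 in CXCR6+ cells, 3.95 and 4.82 in CXCR6- cells and 5.74 in naive cells. The naive array thus lay between the subsets, and the difference between LP and naive cells was 0.23 on the log2 scale (SE 0.30, adjusted p = 0.609 over 45037 probe sets). Between the subsets both probe sets differed by nearly the same amount, 1.25 for the main one and 1.24 for the other, on the log2 scale.

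Tnfsf10 encodes TRAIL, the ligand of the only mouse TRAIL death receptor, which Tnfrsf10b encodes. Its main probe set, 1439680_at, had signals of 9.14 and 7.92 in CXCR6+ cells, 4.13 and 4.66 in CXCR6- cells and 21.4 in naive cells. Every LP array was below the naive array, and the CXCR6- arrays were the lowest. The log2 difference between LP and naive cells was -1.80 (SE 0.26, adjusted p = 0.02024). It was -1.33 for CXCR6+ cells (adjusted p = 0.04412) and -2.28 for CXCR6- cells (adjusted p = 0.02059) against the same naive array.

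The 3 probe sets of Tnfsf10 did not move alike against naive cells. The signals of 1459913_at were 5.97 and 4.20 in CXCR6+ cells, 2.97 and 2.88 in CXCR6- cells and 11.5 in naive cells, and it also passed as lower in LP cells (log2 difference -1.58, SE 0.34, adjusted p = 0.04603). The signals of 1420412_at were 3.43 and 3.96 in CXCR6+ cells, 1.485 and 1.58 in CXCR6- cells and 2.01 in naive cells. This probe set placed the naive array between the subsets and did not pass (0.24, SE 0.28, adjusted p = 0.5608). Both adjusted p-values are from limma's fit over all probe sets, in which that of the main probe set was 0.02869.

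Fas encodes the receptor of Fas ligand. Its probe set, 1460251_at, had signals of 10.4 and 14.2 in CXCR6+ cells, 6.73 and 9.63 in CXCR6- cells and 16.3 in naive cells. All LP arrays were below the naive array, with a log2 difference of -0.72 that did not pass (SE 0.37, adjusted p = 0.2045). Fadd, the adaptor of both receptors, had signals of 3.02 and 2.97 in CXCR6+ cells, 2.93 and 3.49 in CXCR6- cells and 4.77 in naive cells with its main probe set, 1416888_at. The LP arrays overlapped each other and lay below the naive array, with a log2 difference of -0.62 that did not pass (SE 0.26, adjusted p = 0.1415). Its dim probe set 1446499_at ranged between 0.613 and 1.018 in LP cells against 1.342 in naive cells.

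Casp8 encodes the initiator caspase of the death receptors. Its probe set, 1424552_at, had signals of 17.5 and 19.8 in CXCR6+ cells, 14.8 and 12.1 in CXCR6- cells and 41.4 in naive cells. The 4 LP arrays were all below the naive array, with a log2 difference of -1.39 (SE 0.27, adjusted p = 0.03379). Taken alone, CXCR6+ cells did not pass against naive cells (-1.16, adjusted p = 0.0641) and CXCR6- cells did (-1.63, adjusted p = 0.03407). The subsets themselves differed by 0.47 on the log2 scale, with a 95% interval of -0.23 to 1.18.

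Cflar, which encodes c-FLIP in long and short forms, was measured by 5 probe sets that went in different directions. The main one, 1424996_at, had signals of 25.9 and 33.6 in CXCR6+ cells, 23.5 and 17.8 in CXCR6- cells and 43.3 in naive cells, and did not pass (log2 difference of LP against naive cells -0.82, SE 0.33, adjusted p = 0.1346). The signals of 1425686_at were 3.29 and 3.56 in CXCR6+ cells, 3.81 and 2.60 in CXCR6- cells and 13.25 in naive cells, and it passed as lower in LP cells (-2.01, SE 0.35, adjusted p = 0.03298). The opposite held for 1449317_at, with 14.5 and 14.6 in CXCR6+ cells, 17.2 and 13.0 in CXCR6- cells and 5.85 in naive cells. All 4 LP arrays were thus above the naive array with this probe set, by 1.33 on the log2 scale (SE 0.32), which did not pass (adjusted p = 0.05488). The remaining probe sets, 1453482_at and 1425687_at, had log2 differences of -0.93 and -0.92 and did not pass. The values of the probe sets other than the main one are from limma's fit over all 45037 probe sets. In that fit the adjusted p of the main one was 0.1673. Which transcript each probe set reads was not examined, since probe positions were not used here.

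Casp4 encodes caspase-11, whose cleavage of gasdermin D leads to pyroptosis. Its probe set, 1449591_at, had signals of 59.0 and 74.2 in CXCR6+ cells, 50.5 and 39.7 in CXCR6- cells and 16.3 in naive cells. All LP arrays were above the naive array, and the lowest of them was a CXCR6- array. The log2 difference was 1.74 (SE 0.31, adjusted p = 0.02746), and it was 2.02 for CXCR6+ cells (adjusted p = 0.02949) and 1.46 for CXCR6- cells (adjusted p = 0.04953) against the same naive array. Casp1, its neighbour on the chromosome and also an inflammatory caspase, had signals of 35.5 to 45.9 in LP cells and 43.0 in naive cells and did not pass (log2 difference -0.15, adjusted p = 0.7079).

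**Figure D1:**
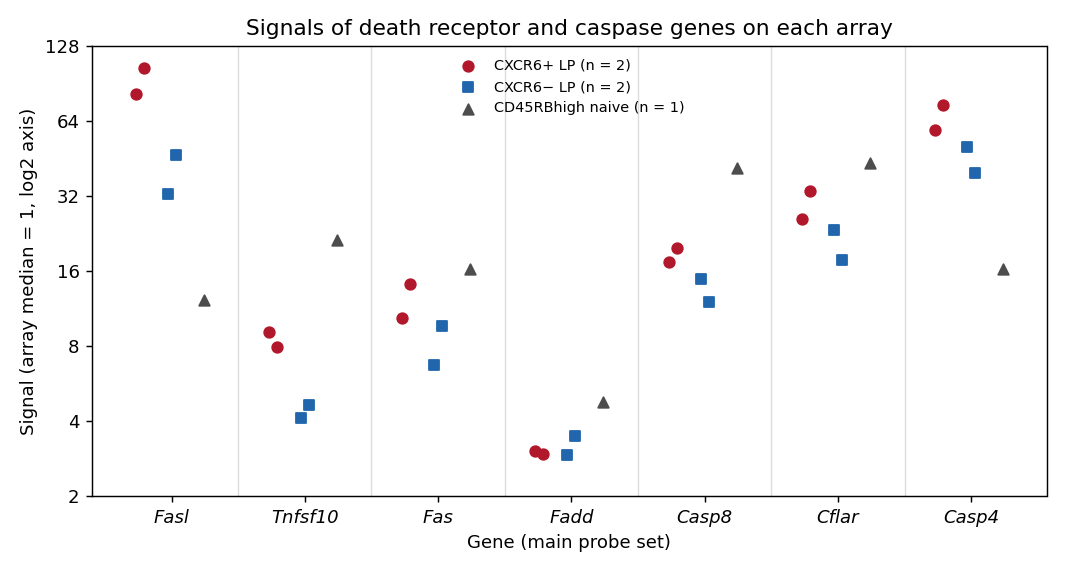
Signal of the main probe set of each gene on each array (log2 axis, array median = 1), with CXCR6+ LP (n = 2), CXCR6- LP (n = 2) and naive T cells (n = 1) from left to right. Fasl and Casp4 lie above the naive array in all 4 LP arrays and the other 5 genes lie below it, and only the Fadd arrays of the subsets overlap.

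Of the 7 genes, 2 passed as higher and 2 as lower in LP cells, where 15.1% of all genes passed as higher and 18.8% as lower. For CXCR6+ cells 2 passed as higher and 1 as lower, against 13.2% and 15.3% of all genes. For CXCR6- cells 2 passed as higher and 2 as lower, against 12.8% and 16.7% of all genes. Over single probe sets of LP against naive cells, 2 of 15 passed as higher and 4 as lower, against 13.6% of all probe sets in each direction. In limma's fit over all probe sets, the main probe sets of Fasl and Casp4 in CXCR6- cells did not pass against naive cells (adjusted p = 0.06386 and 0.06616). Nor did that of Tnfsf10 in CXCR6+ cells (adjusted p = 0.06275). The median log2 difference of LP against naive cells was -0.72 over the 7 genes and -0.14 over all genes. With quantile normalization, the median of all genes was 0.00 and 2806 genes passed as higher and 2171 as lower, where 2756 and 3414 passed without it. Under that scaling Tnfsf10 (log2 difference -1.12, adjusted p = 0.05503) and Casp8 (-0.97, adjusted p = 0.06236) no longer passed, and the differences of Fas and Fadd, which passed under neither scaling, changed sign.

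With any 1 of the 4 LP arrays left out, which leaves 1 residual degree of freedom fewer, none of the 7 genes passed in any comparison, although every difference against naive cells kept its direction. The log2 difference of LP against naive cells was then 2.17 to 2.43 for Fasl (adjusted p 0.05526 to 0.06144) and -1.86 to -1.75 for Tnfsf10 (0.05643 to 0.0668). The log2 difference was 1.66 to 1.83 for Casp4 (0.064 to 0.07657) and -1.47 to -1.32 for Casp8 (0.07575 to 0.0925). Calls were lost across the array as well. Of all genes, 945 passed as higher and 824 as lower without CXCR6+ replicate 1, 999 and 939 without CXCR6+ replicate 2, and 0 without either CXCR6- array. Over all 12 alternatives the adjusted p was 0.0002954 to 0.06144 for Fasl, 0.0005307 to 0.0668 for Tnfsf10, 0.0005972 to 0.07657 for Casp4 and 0.001294 to 0.0925 for Casp8. Each test also takes the single naive array to vary like the LP groups.

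**Figure D2:**
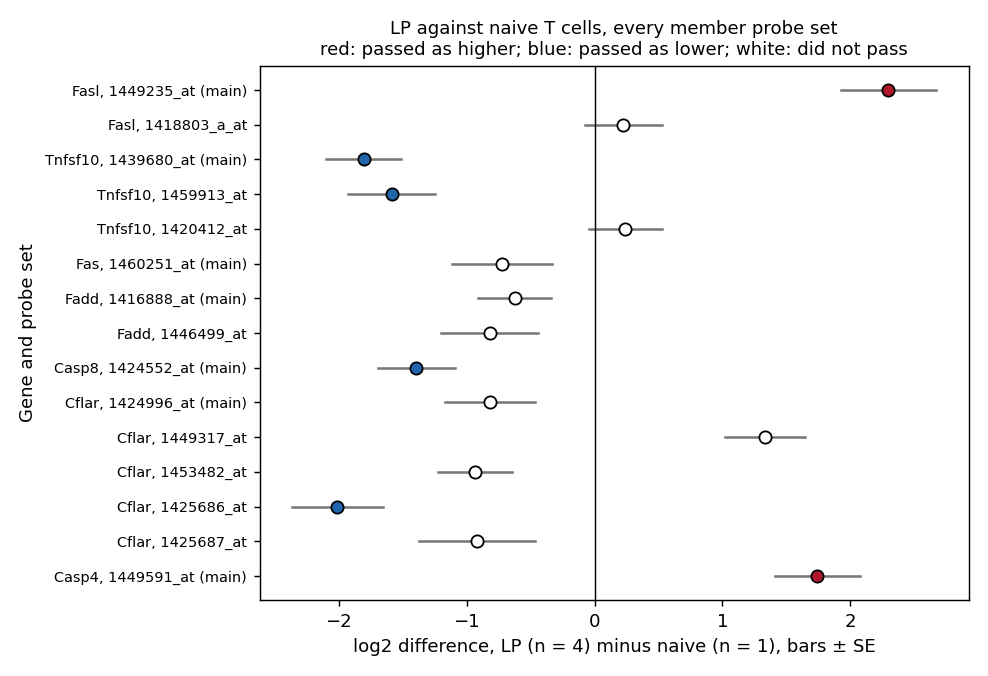
Log2 difference of LP (n = 4) minus naive T cells (n = 1) for each of the 15 probe sets, with bars of ± SE from the fit over all probe sets. Filled points passed, 2 as higher and 4 as lower, and the probe sets of Fasl, Tnfsf10 and Cflar are spread on the axis.

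The LP and naive arrays also differed in added controls, in RNA quality and in markers of other cells. The Dap poly-A control gave 64.6 to 102 in LP cells and 0.194 in naive cells, and the BioB hybridization control 5.91 to 7.72 and 21.4. The Gapdh 3′ to 5′ signal ratio was 2.81 to 6.96 in LP cells and 1.51 in naive cells, and was highest in an array of CXCR6- cells. The summed signal of 6 stromal markers was 93.3 to 152 in LP cells and 9.14 in naive cells, with 5 of 6 higher. That of 5 of 6 B cell markers measured was 3.36 to 4.04 in LP cells and 54.0 in naive cells, with 4 lower. The 3 CD8 and NK cell markers measured had sums of 2.50 to 5.38 in LP cells and 28.3 in naive cells. Only Ncr1, a receptor of NK cells, passed, as lower, with 0.10 to 0.685 in LP cells and 24.9 in naive cells. Cd8b1 had 0.09 to 0.415 in LP cells and 1.554 in naive cells. Cd8a had 3.07 and 4.67 in CXCR6+ cells, 1.88 and 1.47 in CXCR6- cells and 1.885 in naive cells. Of 12 myeloid markers 3 passed as higher and 3 as lower (sums 295 to 374 in LP cells and 373 in naive cells), with Itgam at 0.199 to 0.573 on all arrays. Of 9 epithelial markers 2 passed as higher and 1 as lower, with a median log2 difference of 1.89. Their sums were 41.7 to 84.2 in LP cells and 105 in naive cells, of which Car1 alone gave 85.2, while Krt8 gave 9.36 to 29.6 in LP cells and 0.387 in naive cells. T cell genes were measured on every array, and of 7 of them Cd28 passed as higher and Cd3e and Cd3d as lower in LP cells (sums 566 to 768 in LP cells and 524 in naive cells). The part of these differences in the results for Fasl, Casp4, Tnfsf10 and Casp8 was not tested. Cxcr6, the sorted marker, had 184 and 225 in CXCR6+ cells, 58.1 and 25.3 in CXCR6- cells and 10.5 in naive cells.

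Between the subsets, 0 of 18193 genes passed (0%), so that no member could stand out by that test, and 1191 had an unadjusted p under 0.05. Fasl was 2.38-fold higher in CXCR6+ than in CXCR6- cells (log2 difference 1.25, 95% interval 0.35 to 2.15, unadjusted p = 0.01915 in limma's fit across all genes, adjusted p = 0.669). Tnfsf10 was 1.94-fold higher in CXCR6+ cells (log2 difference 0.96, 95% interval 0.29 to 1.62, unadjusted p = 0.0173 in the same limma fit, adjusted p = 0.669). Both p-values fail the correction. Both ligand genes were higher in 2 of 2 CXCR6+ arrays than in either CXCR6- array. The same held for 6 of the 7 genes, these 2 included, and for 25.1% of all genes. The remaining 5 genes had intervals that include 0, from -0.35 to 1.54 for Fas, -0.22 to 1.35 for Casp4, -0.31 to 1.37 for Cflar and -0.75 to 0.56 for Fadd, beside that of Casp8.

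In 6 of the 7 genes, all but Fadd, both CXCR6+ arrays lay above both CXCR6- arrays, and in 0 genes below. Over all genes these shares were 25.1% and 14.3%. Over probe sets, 10 of 15 were without overlap and higher and 0 lower, against 24.3% and 14.5% of all probe sets, and 12 of 15 differences were positive, against 56.7%. The probe sets share RNA and, within a gene, transcripts, so they are not separate evidence. RNA quality also parted the subsets without overlap. The Gapdh 3′ to 5′ signal ratio was 2.81 and 3.98 in CXCR6+ cells and 4.19 and 6.96 in CXCR6- cells. That of Actb was 2.02 and 2.32 in CXCR6+ cells and 2.67 and 4.22 in CXCR6- cells. The part of RNA quality in the members' values was not tested. The median log2 difference between the subsets was 0.56 over the 7 genes and 0.08 over all genes. Of the 7 T cell markers measured, Cd3d, Cd3g, Cd4, Cd2 and Cd5 had positive differences. Cd3e (-0.04) and Cd28 (-0.01) did not. The median of the 7 was 0.42, and 0 passed. Their sums were 715 and 768 in CXCR6+ cells and 637 and 566 in CXCR6- cells, and their part in the members' values was not tested. With quantile normalization the median of all genes was 0.00 and the members' differences were 0.93 for Fasl, 0.83 for Tnfsf10, 0.44 for Fas and 0.30 to 0.32 for Casp8, Cflar and Casp4. The methods' t-test gave Tnfsf10 an unadjusted p of 0.01924 and Fasl one of 0.05827 and adjusted p-values of 0.6677 and 0.713.

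**Figure D3:**
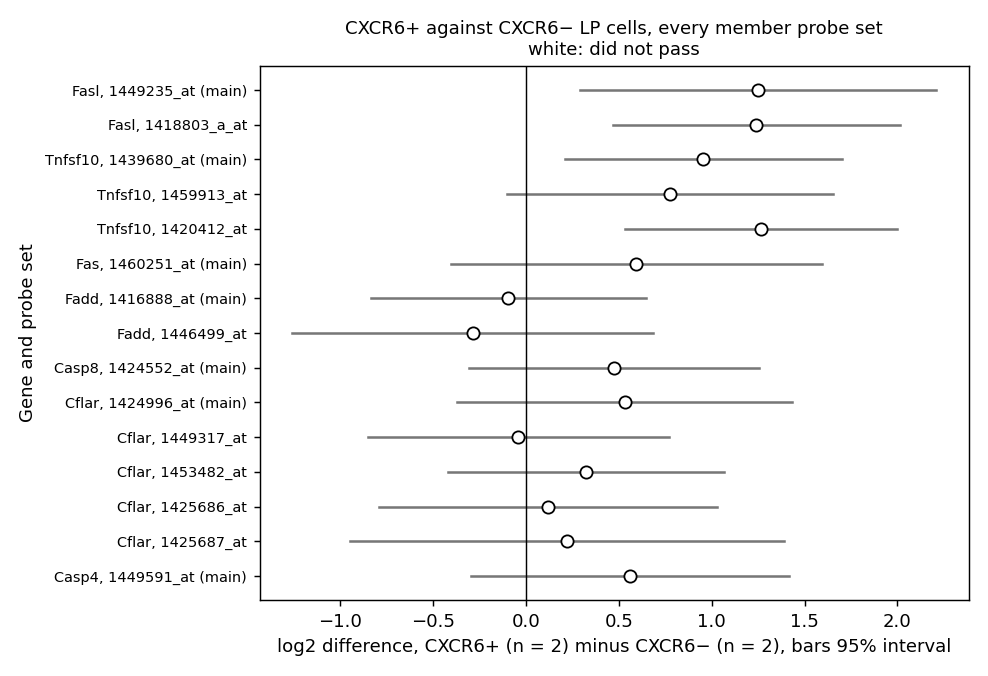
Log2 difference of CXCR6+ (n = 2) minus CXCR6- (n = 2) LP cells for each of the 15 probe sets, with 95% intervals from the fit over all probe sets. None passed, and the intervals of both Fasl probe sets and of 2 of the 3 Tnfsf10 probe sets lie above 0.

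Other genes of the pathways were counted from lists. Of 59 genes, 54 were measured, and 11 passed as higher and 12 as lower in LP than in naive cells, with a median log2 difference of -0.08. These are 20.4% and 22.2% of those measured, near the 15.1% and 18.8% of all genes. None passed between the subsets. Without 1 of the CXCR6+ arrays 6 passed as higher and 6 as lower, and without 1 of the CXCR6- arrays 0 did. Among 13 receptors, ligands and their regulators, 3 passed as higher and 2 as lower. Tnfrsf25, the death domain receptor DR3 of T cells, had signals of 22.0 to 43.0 in LP cells and 5.96 in naive cells (log2 difference 2.34, adjusted p = 0.02064). Tnfrsf23, a mouse decoy receptor of TRAIL, was also higher, at 0.96 to 1.56 against 0.355 (1.71, adjusted p = 0.02275). Faim2, an inhibitor of Fas signals known from neurons, was dim on every array, with 1.95 to 2.31 against 0.038 (adjusted p = 0.01193). With a floor at a signal of 1 its log2 difference was 1.03, and Tnfrsf23 did not pass (0.24, adjusted p = 0.4634).

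Lower in LP cells were Fcmr, the IgM Fc receptor, at 0.172 to 0.514 against 4.29 in naive cells (-3.80, and -2.10 with the floor, adjusted p = 0.02933 without it), and Lta, which encodes lymphotoxin alpha, at 1.96 to 6.43 against 9.89 (-1.53, adjusted p = 0.03318). The receptor of TRAIL, Tnfrsf10b, had 0.564 to 1.022 in LP cells and 0.411 in naive cells and did not pass (0.96, adjusted p = 0.0852). Tnf and its receptor gene Tnfrsf1a did not pass either, with log2 differences of 0.57 and 0.68.

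Of 15 adaptors and ubiquitin regulators, 5 passed as higher and 3 as lower. Traf1, an adaptor of TNF receptors, had signals of 118 to 168 in LP cells and 3.01 in naive cells (5.56, adjusted p = 0.01193), and Tnfaip3, which encodes the ubiquitin editor A20, had 258 to 338 and 15.6 (4.23, adjusted p = 0.01193). Birc3 and Birc2, the cellular inhibitors of apoptosis that ubiquitinate RIPK1, were higher by 2.99 and 1.79 on the log2 scale, and Tnip1, a partner of A20, by 1.38. Tradd, the adaptor of TNF receptor 1 and DR3, had 8.75 to 12.2 in LP cells and 44.0 in naive cells (-2.16, adjusted p = 0.01667). Rnf31, the catalytic subunit of the linear ubiquitin ligase, and Faf1, a Fas-associated factor, were lower, with log2 differences of -1.54 and -1.32.

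Of 4 necroptosis genes, 2 were lower in LP cells, Zbp1, a sensor of nucleic acids (-3.32, adjusted p = 0.01499), and Pgam5, a mitochondrial phosphatase (-1.74, adjusted p = 0.02045). Ripk3, the kinase that acts with RIPK1, had 17.7 to 24.0 in LP cells and 12.0 in naive cells and did not pass (0.79, adjusted p = 0.07864). Of 6 other caspases, only Casp9, the initiator of the mitochondrial pathway, passed, with 1.97 to 2.30 in LP cells and 31.4 in naive cells (-3.85, adjusted p = 0.01193).

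Of 16 caspase targets and inflammasome genes, 3 passed as higher and 4 as lower. Bid, the substrate that links caspase-8 to mitochondria, had 0.811 to 1.443 in LP cells and 28.1 in naive cells (-4.78, adjusted p = 0.01193). Aim2, a sensor of cytosolic DNA, Htra2, a mitochondrial protease, and Parp1, a caspase substrate of DNA repair, were lower, with log2 differences of -4.91, -3.22 and -2.84. Nlrp3, an inflammasome sensor, had 5.04 to 6.38 in LP cells and 0.33 in naive cells (4.14, and 2.54 with the floor, adjusted p = 0.01193 without it). Il1b, a caspase-1 substrate made mostly by myeloid cells, was higher by 3.11 and Cycs, which encodes cytochrome c, by 1.16. Beside them, the 12 myeloid markers had a median log2 difference of 0.01, with Cd14, Lyz2 and Csf1r higher (5.27, 1.55 and 1.20) and S100a9, Fcer1g and S100a8 lower (-4.72, -4.03 and -2.04). Their part in these values was not tested. With probe sets of the _a_at, _s_at and _x_at types left out, 7 genes of the lists passed as higher and 8 as lower. Cycs and Parp1, read here by such probe sets, then had log2 differences of -0.06 and 0.54 and did not pass.

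**Figure D4:**
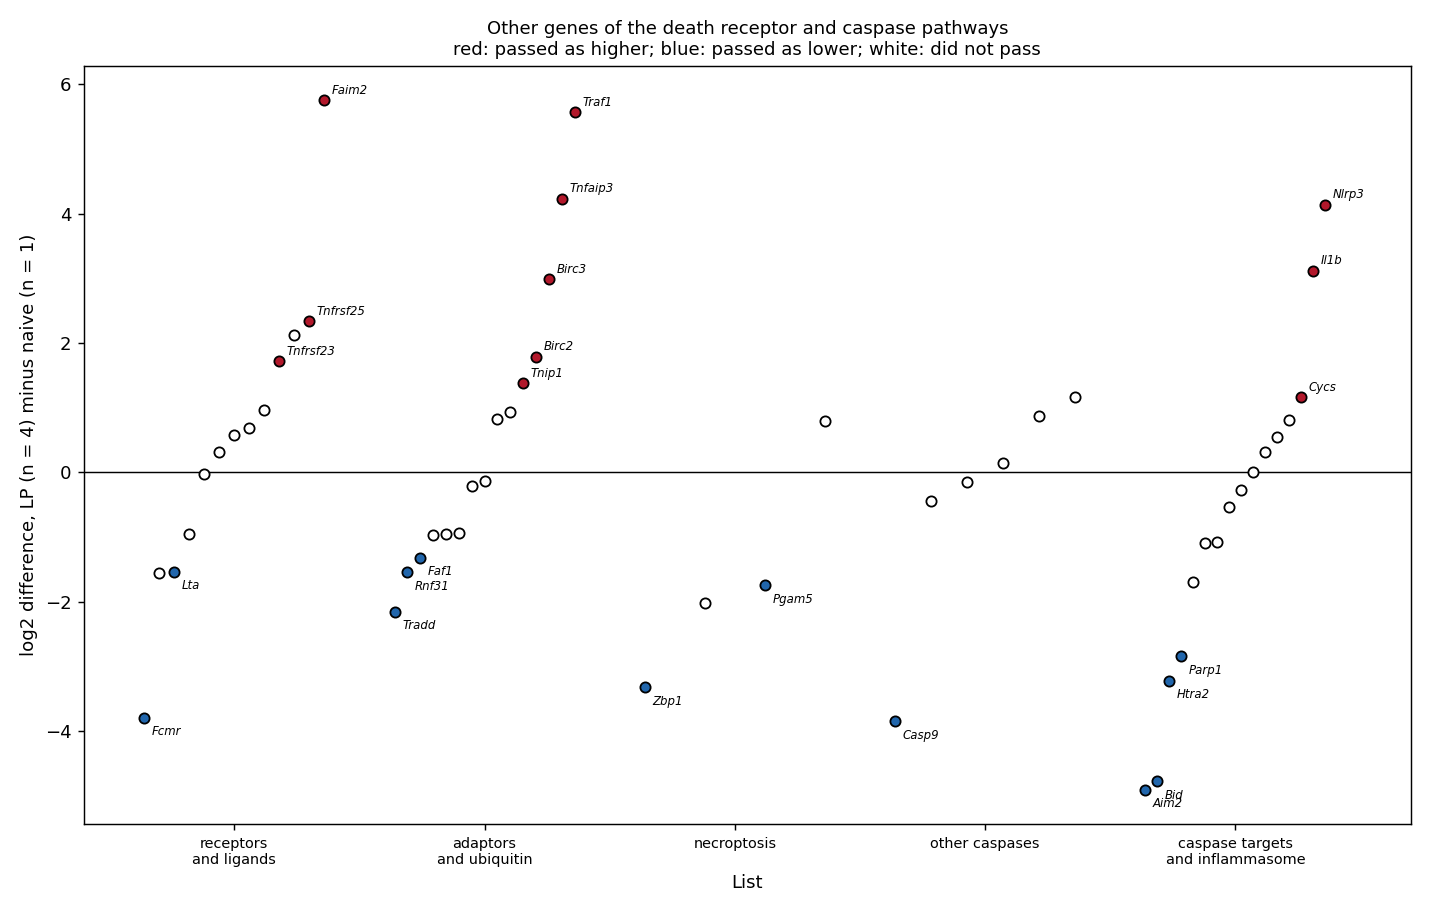
Log2 difference of LP (n = 4) minus naive T cells (n = 1) for 54 measured genes of the 5 lists, 1 point a gene. The 11 genes that passed as higher and the 12 that passed as lower are filled and named. The points of Faim2, Fcmr, Nlrp3, Aim2, Bid and Tnfrsf23 rest on signals under or near 1 in a group. Raising signals under 1 to that floor puts Faim2 at 1.03 and Aim2 at -4.07.

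The genes with the profile most like each member over the 5 arrays were taken by the root mean square distance of centred log2 signals, among genes with a mean signal of at least 1. Sytl2, which encodes a synaptotagmin-like protein of vesicle transport, was nearest to Fasl at a distance of 0.028, with 40.5 and 51.2 in CXCR6+ cells, 16.7 and 22.7 in CXCR6- cells and 6.12 in naive cells. Camk2n1 (0.119) and the hexokinase gene Hk2 (0.174) came next. Nearest to Tnfsf10 was Kpnb1, an import receptor of the nucleus, at 0.060, to Fas Naxe at 0.062, to Fadd Ttc3 at 0.027, to Casp8 Vamp8 at 0.029, to Cflar Chrnb1 at 0.036 and to Casp4 Serpinb6e at 0.051. These distances rest on 5 arrays and are descriptions.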

How the data were processed

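Expression was measured in 5 arrays. The authors deposited intensity values per probe set on a linear scale, not log2 values, and set the median of every array to 1. The methods name GeneSpring for this step and the submitters' processing notes name RMA. How background was corrected and probe sets filtered is not given in the sources used here, and methods and labels name different RNA kits. Precision is limited by the number of arrays.

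Signals were log2 transformed, with 0 set to 0.001. Of the probe sets, 34945 carried 1 gene symbol and 932 several, and 34741 matched RefSeq by Entrez ID. There were 18193 genes, each read by its main probe set, and 9010 had others. The 3 groups were fitted together in limma 3.58.1 (R 4.3.3) with lmFit and eBayes, and contrasts were tested two-sided. The fit had 2 residual degrees of freedom, all from LP arrays, and 1.678 prior degrees of freedom. It was also run on simulated data in which the naive array varied like the LP arrays, so that assumption was not checked. No filter on dim genes was applied, and all 7 measured members were tested.

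The members, lists and tests were chosen with earlier results of these data known. Named genes were all members, up to 4 passing genes in each list and direction, genes a sentence turns on, and the 3 nearest genes to each member (predicted genes left out). Not all are printed. Alternatives were probe sets averaged per gene, leaving out the _s_at, _x_at and _a_at types, dropping genes under the 40th percentile, quantile normalization, adding 1 to the signal, raising signals under 1 to that floor, a robust fit with a variance trend, a replicate block, LP arrays only, each LP array left out, and the methods' t-test. Figures were drawn with matplotlib 3.10.9 in Python 3.11.15.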

Additional observations from a re-analysis of the deposited data

Results flagged for a closer look

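In 2 probe sets the naive array lay between the subsets, so that both CXCR6+ arrays were above it and both CXCR6- arrays below it. For the Fasl probe set 1418803_a_at the mean log2 difference from the naive array was 0.85 in CXCR6+ cells and -0.39 in CXCR6- cells. For the Tnfsf10 probe set 1420412_at it was 0.87 in CXCR6+ cells and -0.39 in CXCR6- cells. Since the naive array is common to both, testing whether these differ is the comparison of the subsets, which did not pass in limma (adjusted p = 0.6154 for the Fasl probe set and 0.5985 for that of Tnfsf10). Neither is the main probe set of its gene.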

How the results depend on the processing

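With 1 naive array and 2 arrays a subset, the calls of single genes depend on the settings. Of LP against naive cells, 2 members passed as higher and 2 as lower. The counts were 1 and 1 with probe sets averaged per gene, where Fasl (log2 difference 1.26, adjusted p = 0.06109) and Tnfsf10 (-1.05, adjusted p = 0.05977) did not pass. With a floor at a signal of 1, 0 passed as higher, and with quantile normalization 0 passed as lower. Over all genes, 1068 passed as higher with the floor and 2171 as lower with quantile normalization. With each LP array left out in turn, 0 to 0 members passed in either direction, and 0 to 999 genes were higher and 0 to 939 lower. Cflar passed as lower with the filter (adjusted p = 0.04794), the signal plus 1 (0.0383) and the variance trend (0.0253), over a range of 0.0253 to 0.3048. Over probe sets (2 higher, 4 lower), the floor gave 0 higher and 2 lower, quantile normalization 0 lower, and leaving out an array 0 to 0. The Cflar probe set 1449317_at passed as higher in 4 settings (adjusted p = 0.0124 with the filter, 0.03411 with quantile normalization, 0.007125 with the signal plus 1 and 0.00332 with the variance trend), and its highest adjusted p was 0.1208.

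For CXCR6+ against naive cells (2 higher, 1 lower), 1 member was higher with the floor, 0 were lower with the mean of probe sets or quantile normalization, and 2 were lower with the filter, the signal plus 1 or the variance trend. For CXCR6- against naive cells (2 higher, 2 lower), 0 were higher with the mean of probe sets, without the _s_at, _x_at and _a_at types or with the floor, 4 were lower with the filter, the signal plus 1 or the variance trend, and 1 with quantile normalization. Over all genes, 993 were higher in CXCR6+ and 820 in CXCR6- cells with the floor, 1724 and 1794 were lower with quantile normalization, 4616 and 4951 with the signal plus 1, and 4265 and 4612 with the variance trend. Leaving out an array gave 0 to 0 in both. Between the subsets, the methods' t-test called 1 member higher before adjustment, with 846 genes higher and 437 lower, and 1 gene higher after it.

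Same-numbered arrays had deviations from their group means that correlated at 0.192 over 10907 genes with a mean signal of at least 1 (0.019 over all genes), and the labels do not say that the numbers pair them. With the replicate block, 1 member (Fasl, adjusted p = 0.04377) was higher and 0 lower in LP cells, with 1705 and 1807 of all genes, and 0 members and 0 genes passed against naive cells in either subset alone. Over probe sets 0 passed with the block in either direction. The cause of these changes was not tested. No passed difference of a member changed sign under these settings. Of the other genes named, Cycs had -0.0241 (log2) with probe sets averaged, and without the _s_at, _x_at and _a_at types Cycs had -0.0634, Parp1 0.54 and Acta2 -1.25, none of which passed. Of the 54 list genes, 7 passed as higher and 8 as lower without these types. With the block 6 passed as higher, and with quantile normalization or the block 7 passed as lower. With the filter, the signal plus 1 or the variance trend, 19 passed as lower. The settings were applied to these genes after the data were seen.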
